A study of Mus musculus with 6 samples.

Results

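The transcription factor NF-kB was examined through its subunits and its inhibitors in regulatory T cells (Tregs) of mice. The genes were Nfkb1, Nfkb2, Rel, Rela and Relb for the subunits and Nfkbia, Nfkbib, Nfkbie, Nfkbid and Tnfaip3 for the inhibitors. A probe set, a group of short probes read together as a single value, was taken where the platform annotation gave the symbol of 1 of these genes and no other. This gave 17 probe sets of 9 genes among the 45037 probe sets tested, 5 for subunits and 12 for inhibitors. Nfkb1 had 0 probe sets under its symbol in the annotation used and was not analysed here. No filter on low values was applied, so all 17 probe sets entered the test.

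The arrays compared 2 groups of 3 female NOD mice, a strain prone to autoimmune diabetes, and each array held splenic Tregs of 1 mouse. All mice carried a transgene for the BDC2.5 T cell receptor (TCR), specific for an islet antigen of the pancreas, and Foxp3GFP, a reporter that labels cells expressing Foxp3. The mice called treated were RAG1o/o, without the enzyme that rearranges receptor genes, and were given 37.5 µg of the anti-CD3 antibody KT3 by intravenous injection on each of 5 days, the first at an age of 17 days. The mice called untreated were RAG1+/o, with 1 working copy, and were given nothing. The sort at 28 or 29 days of age kept GFP+ CD4+ cells and left out those with B220, CD8a or CD11b/c. The labels place the sort of treated mice 11 or 12 days after treatment. Antibody and RAG1 genotype differed together and cannot be told apart. With 3 arrays a group, the number of arrays limits the precision. Values are log2 RMA intensities, differences are treated minus untreated in log2 units (n = 3 per group), and intervals are 95% intervals from limma.

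NF-kB is a family of dimeric transcription factors that wait in the cytoplasm bound to inhibitor proteins. Signals from the T cell receptor, CD28 or receptors of the tumour necrosis factor family activate the IKK kinases, which mark the inhibitors for destruction and free the dimers to enter the nucleus. NF-kB then induces several of its own inhibitors, which ends the response. In Tregs the subunit c-Rel, encoded by Rel, is known for its part in the development of the lineage.

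Since NF-kB acts through short DNA motifs called kB sites, the promoters of its own genes are shown first. RefSeq promoter windows on GRCm38.p6, from 250 bases before to 50 after a gene's start, were found for 8 of the 10 genes, 13 windows in all, and not for Nfkb1 and Relb. The 10-letter kB consensus was searched on both strands. It matched in 8 of the 13 windows and in 6 of the 8 genes, beside 8.46% of all 32841 windows and 9.55% of all 27018 genes. A pair of Nfkb2 windows overlap and share a match. The windows below belong to Nfkbia, Nfkb2, Tnfaip3 and Rela, since they cover inhibitors and subunits with differences above and below 0. They are printed on the gene's strand and capitals mark kB consensus matches on either strand.
Nfkbia, chr12:55492598-55492897, minus strand: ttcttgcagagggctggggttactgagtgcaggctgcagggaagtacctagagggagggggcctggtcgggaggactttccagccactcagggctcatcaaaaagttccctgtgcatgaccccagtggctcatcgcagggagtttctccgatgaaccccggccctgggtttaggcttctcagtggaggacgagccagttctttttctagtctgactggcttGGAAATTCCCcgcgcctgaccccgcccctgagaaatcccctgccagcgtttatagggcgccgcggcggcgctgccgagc
Nfkb2, chr19:46304487-46304786, plus strand: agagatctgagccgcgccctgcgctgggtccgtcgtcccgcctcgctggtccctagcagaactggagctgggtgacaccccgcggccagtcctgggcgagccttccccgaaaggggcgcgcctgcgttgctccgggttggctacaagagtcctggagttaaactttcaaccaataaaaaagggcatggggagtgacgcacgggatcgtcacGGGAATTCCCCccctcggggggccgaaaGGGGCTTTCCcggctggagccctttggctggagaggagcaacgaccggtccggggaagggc
Tnfaip3, chr10:19015361-19015660, minus strand: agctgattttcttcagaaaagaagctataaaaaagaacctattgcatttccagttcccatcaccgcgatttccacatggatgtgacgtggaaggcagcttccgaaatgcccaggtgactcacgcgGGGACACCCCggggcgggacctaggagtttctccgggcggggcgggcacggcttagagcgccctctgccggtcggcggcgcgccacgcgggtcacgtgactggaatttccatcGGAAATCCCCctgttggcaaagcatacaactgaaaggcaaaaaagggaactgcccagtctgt
Rela, chr19:5637291-5637590, plus strand: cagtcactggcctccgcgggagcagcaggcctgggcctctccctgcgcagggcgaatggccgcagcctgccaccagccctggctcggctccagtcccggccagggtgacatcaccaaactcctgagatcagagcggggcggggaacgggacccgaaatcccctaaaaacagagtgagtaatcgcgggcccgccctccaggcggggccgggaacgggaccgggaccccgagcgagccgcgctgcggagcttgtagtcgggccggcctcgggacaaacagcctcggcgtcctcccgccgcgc

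Nfkbia had 1 match, which began 29 bases before the start. The Nfkb2 window had 2 separate stretches of matches and the Tnfaip3 window 2, while the Rela window had 0. A match is a sequence description, and a window without one says only that these letters are not in it.

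None of the NF-kB genes passed the test. Of the 17 probe sets, 0 were called by limma at an adjusted p of 0.05, and 0% of all probe sets were called (2037 of 45037 at an unadjusted p under 0.05). Adjusted p of the 17 ran from 0.961 to 0.985. The difference was above 0 for 14 of the 17, with a median of +0.40. Of all probe sets 58% lay above 0, and the median of all was +0.05. Of the 17, 15 lay above the median level of all probe sets, with a median difference of +0.43, beside +0.007 for all probe sets above that level. The 14 are not separate genes, since 5 are of Nfkbia and Nfkb2, Nfkbib and Nfkbie have 2 each. Of the 17 probe sets 1 had an unadjusted p under 0.05, beside 4.52% of all probe sets, and in 2 the groups did not overlap, beside 10.2% of all. Of these 2, 1 was higher in treated Tregs, beside 5.14% of all, and 1 lower, beside 5.02%. Both shares rest on few probe sets, and neither count stands clear of the background. The spread of the treated arrays was the wider in 14 of the 17 probe sets, as it was in 66.9% of all. Over all probe sets treated replicate 2 lay farthest from the rest, at a median absolute log2 distance of 0.354 to 0.420 from the other 5 arrays, which lay 0.151 to 0.269 from each other. Without it 12 of the 17 differences were above 0, with a median of +0.36. In RNA from a sorted population, fewer cells that express a gene and less RNA per cell cannot be told apart.

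**Figure D1:**
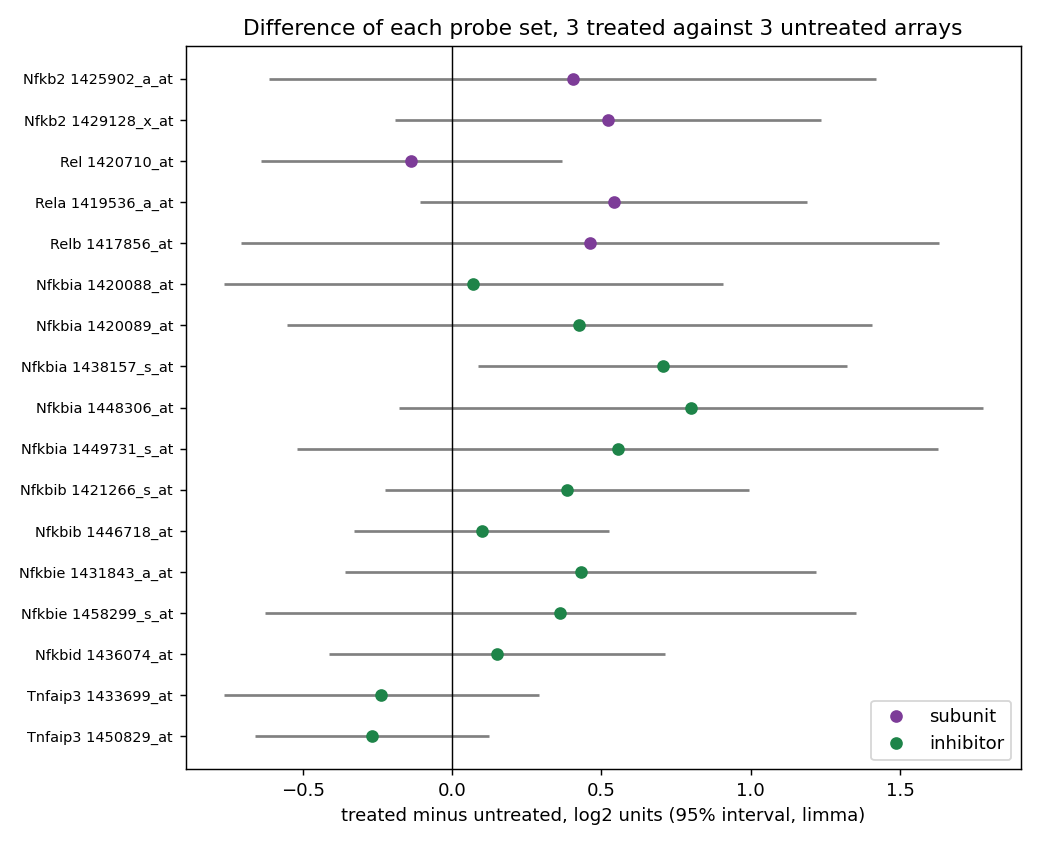
Difference between treated and untreated arrays for each of the 17 probe sets, in log2 units, with 95% intervals from limma; colours separate subunits from inhibitors. Of the intervals, 16 cross 0, and the 1 that does not belongs to an Nfkbia probe set at +0.70.

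Rela encodes p65, the main activating subunit of the canonical pathway. Its probe set measured 9.65, 9.70 and 10.38 on the treated arrays, in the order of their replicate numbers, and 9.34, 9.01 and 9.75 on the untreated arrays. Treated replicates 1 and 2 lay below untreated replicate 3 and the groups overlapped. The difference was +0.54 (95% interval -0.11 to 1.19, limma adjusted p = 0.961), and +0.31 without treated replicate 3.

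Relb encodes the subunit that pairs with the product of Nfkb2 in the alternative pathway. It measured 7.03, 6.78 and 8.67 in treated and 6.91, 6.71 and 7.48 in untreated replicates 1, 2 and 3. Treated replicate 3 stood alone at the top, and the other 5 arrays lay between 6.71 and 7.48. The difference of +0.46 had an interval of -0.71 to 1.63, and without treated replicate 3 it was -0.13, without treated replicate 2 +0.82.

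Nfkb2 encodes a precursor that is cut to a DNA-binding subunit. Probe set 1425902_a_at had treated replicate 3 first and untreated replicate 3 next, as Relb did, with 7.24, 7.23 and 8.75 in treated and 7.42, 6.95 and 7.64 in untreated replicates. Its difference was +0.40 (interval -0.61 to 1.42). It was -0.10 without treated replicate 3 and +0.66 without either of the other treated replicates. Probe set 1429128_x_at, whose suffix marks probes that may also bind other transcripts, had its highest value in treated replicate 2 instead, at 8.89 against 7.79 and 8.09 in the other treated and 7.48, 7.98 and 7.74 in the untreated replicates. Its difference was +0.52 (interval -0.19 to 1.24), with +0.21 when treated replicate 2 was left out. The 2 probe sets of this gene therefore put different treated arrays on top.

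Rel was the only 1 of the 4 measured subunit genes with a difference below 0. It measured 6.40, 6.68 and 6.41 in treated and 6.59, 6.99 and 6.31 in untreated replicates 1, 2 and 3. The highest and the lowest of the 6 values were both untreated. The difference was -0.14 (interval -0.64 to 0.37), and it turned to +0.04 without untreated replicate 2.

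**Figure D2:**
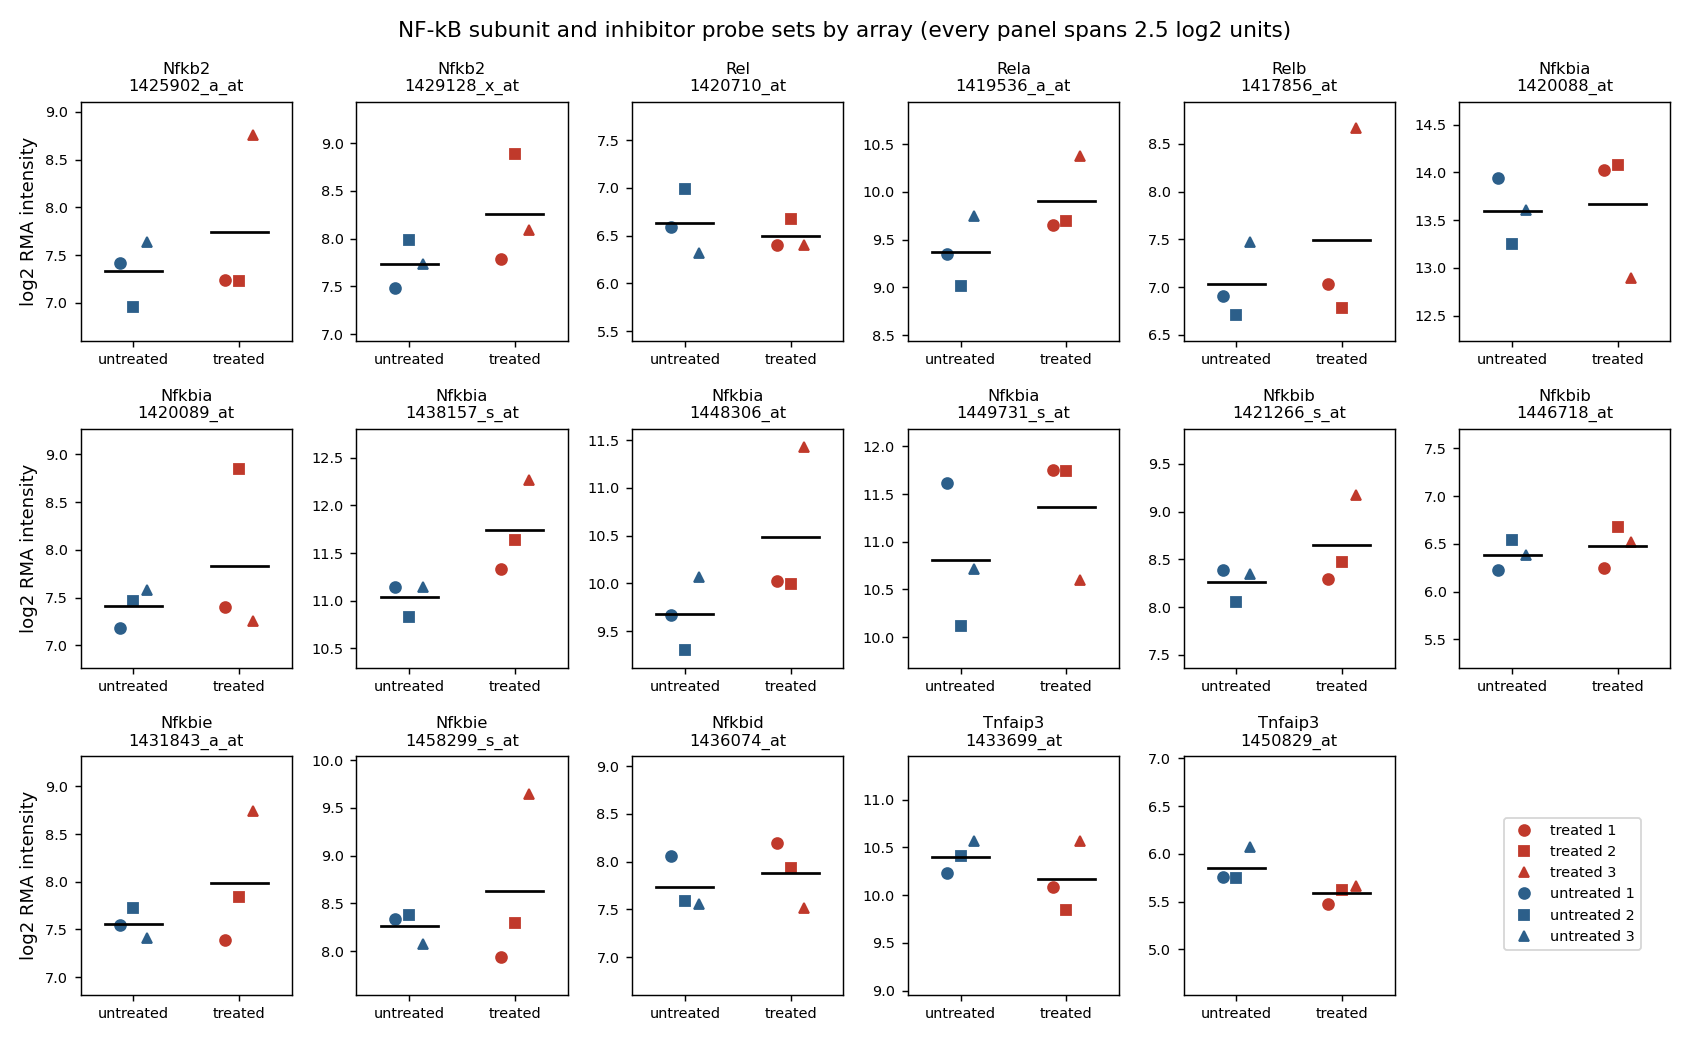
Log2 RMA intensity of the 17 probe sets on each array, untreated at the left and treated at the right of each panel, with replicates as separate symbols and group means as black bars; all panels have the same height of scale but different levels. The triangle of treated replicate 3 is the highest point in 9 panels and the lowest in 2.

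Nfkbia encodes IkB alpha, the inhibitor that is destroyed and made anew in each NF-kB response. It had 5 probe sets, all with a difference above 0, from +0.07 to +0.80. Probe set 1438157_s_at measured 11.33, 11.64 and 12.27 in treated and 11.14, 10.83 and 11.14 in untreated replicates. This was the 1 probe set of the family with all treated above all untreated values. Its difference was +0.70 (1.63-fold, interval 0.09 to 1.32, limma adjusted p = 0.961), and it ranked 1204 by p among 45037 probe sets. Leaving out treated replicate 3 gave +0.44.

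Probe set 1448306_at, the 1 whose annotation names the RefSeq transcript of Nfkbia, had the largest difference of the 17. It measured 10.02, 9.99 and 11.43 in treated and 9.67, 9.31 and 10.07 in untreated replicates. Untreated replicate 3 lay just above treated replicates 1 and 2, and the difference was +0.80 (1.74-fold, interval -0.18 to 1.78). Without treated replicate 3 the smaller value of +0.33 remained.

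The other 3 Nfkbia probe sets ordered the arrays differently. Probe set 1420088_at measured 14.03, 14.08 and 12.89 in treated and 13.94, 13.25 and 13.60 in untreated replicates, so treated replicate 3 was the lowest of all. Probe set 1449731_s_at measured 11.75, 11.74 and 10.60 against 11.61, 10.11 and 10.71, and 1420089_at measured 7.40, 8.85 and 7.25 against 7.18, 7.46 and 7.58. Treated replicate 3 was thus the lowest treated array in these 3 and the highest in the former pair, although all 5 carry the same gene symbol. The differences were +0.07 (interval -0.76 to 0.91), +0.55 (interval -0.52 to 1.63) and +0.43 (interval -0.55 to 1.41). Leaving out treated replicate 2 turned the first to -0.14 and the last to -0.08. The second was +0.20 without untreated replicate 2 and +0.95 without untreated replicate 1. The first was also below 0 when treated replicate 1 (-0.11) or untreated replicate 2 (-0.10) was left out. With the mean of the 5 probe sets Nfkbia differed by +0.51 (limma adjusted p = 0.910 over 18193 genes), and its brightest probe set alone gave +0.07.

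Nfkbib and Nfkbie encode further cytoplasmic inhibitors, IkB beta and IkB epsilon. Nfkbib probe set 1421266_s_at measured 8.29, 8.47 and 9.18 in treated and 8.39, 8.05 and 8.35 in untreated replicates, a difference of +0.38 (interval -0.23 to 0.99) that was +0.12 without treated replicate 3. The second Nfkbib probe set stayed between 6.23 and 6.68 on all 6 arrays. Its difference was +0.10, and its range over the arrays was smaller than that of most probe sets.

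Both Nfkbie probe sets had a single high array. Probe set 1431843_a_at measured 7.39, 7.84 and 8.74 in treated and 7.54, 7.72 and 7.41 in untreated replicates, and 1458299_s_at measured 7.94, 8.30 and 9.65 against 8.34, 8.38 and 8.07. In both, treated replicate 3 lay above the other 5 arrays and treated replicate 1 below the untreated mean. The differences were +0.43 (interval -0.36 to 1.22) and +0.36 (interval -0.63 to 1.35). Without treated replicate 3 they were +0.06 and -0.15.

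Nfkbid encodes IkBNS, a nuclear member of the inhibitor family that is known to be needed for normal Treg numbers. It measured 8.20, 7.94 and 7.51 in treated and 8.06, 7.59 and 7.55 in untreated replicates. In both groups replicate 1 was the highest and replicate 3 the lowest, and the difference between groups was +0.15 (interval -0.41 to 0.71). Leaving out treated replicate 1 gave -0.0081 and leaving out treated replicate 3 gave +0.33.

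Tnfaip3 encodes a ubiquitin-editing enzyme that shuts down signalling upstream of IKK, and it was the 1 inhibitor gene whose differences lay below 0. Probe set 1433699_at measured 10.08, 9.84 and 10.57 in treated and 10.23, 10.41 and 10.56 in untreated replicates. Both replicates numbered 3 were level at the top and the groups overlapped, with a difference of -0.24 (interval -0.77 to 0.29). This was -0.08 without treated replicate 2 and -0.44 without treated replicate 3. Probe set 1450829_at measured 5.48, 5.62 and 5.66 in treated and 5.76, 5.74 and 6.07 in untreated replicates. Here the groups did not overlap, but this probe set was dim, with a mean of 5.72 at percentile 34.7 of all probe sets. The difference was -0.27 (interval -0.66 to 0.12, limma adjusted p = 0.961) and -0.16 when untreated replicate 3 was left out.

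Much of the variation within the family lay in treated replicate 3. It was the highest of the 6 arrays in 9 of the 17 probe sets, where it was the highest in 17.4% of all probe sets and in 24.9% of those above the median level. This count was made after the values were seen and has no test. Those 9 were probe sets of Rela, Relb, Nfkb2, Nfkbia, Nfkbib, Nfkbie and Tnfaip3. Untreated replicate 2 was the lowest array in 7 of the 17, beside 18.2% of all. With treated replicate 3 left out, 11 of the 17 differences were above 0, against 14 with it, and the median was +0.12. The median was +0.64 without treated replicate 1 and +0.18 with array weights. Treated replicate 2 was the highest array in 37.4% of all probe sets and in 4 of the 17.

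**Figure D3:**
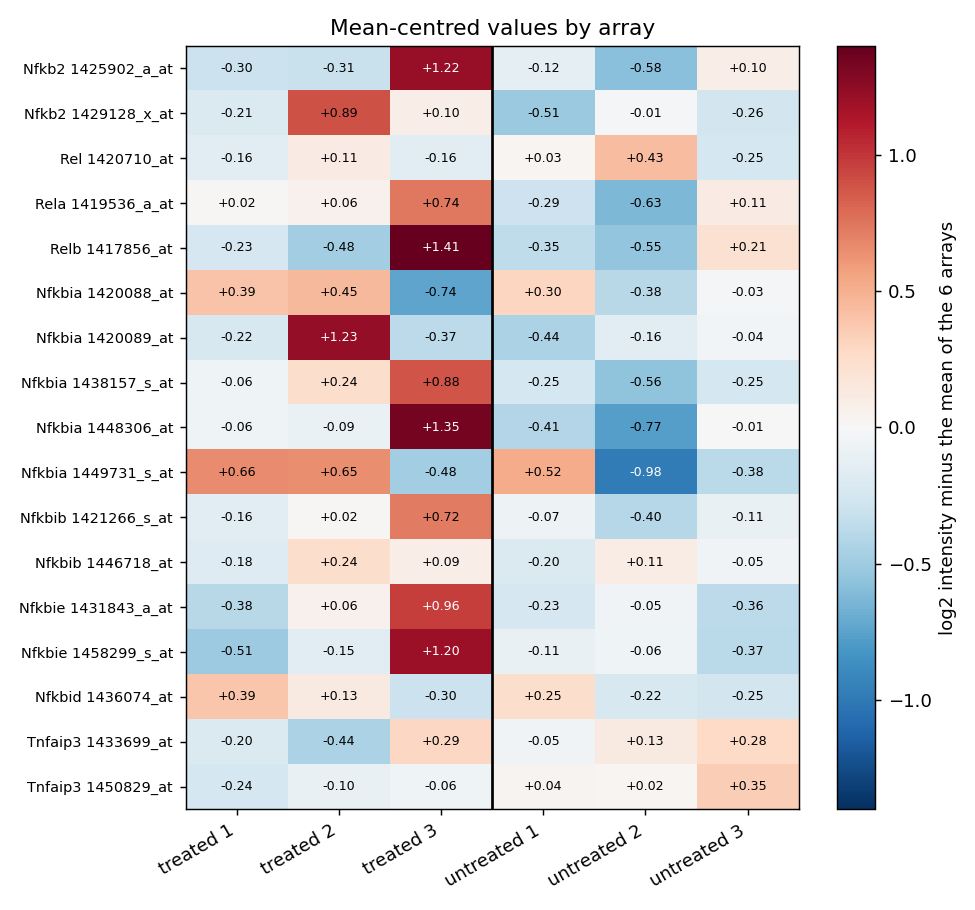
Log2 intensity of each probe set minus its mean over the 6 arrays, with arrays in columns and red for values above the mean. The column of treated replicate 3 holds the largest value in 9 rows, up to +1.41 for Relb, and values of -0.74, -0.48 and -0.37 in 3 of the 5 Nfkbia rows.

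Control probe sets were read on treated replicate 3 as well, and 2 of 4 controls lay outside the range of the other arrays. The log2 ratio of the 3′ to the 5′ control probe set of beta-actin was 3.62 on this array and 0.92 to 1.95 on the other 5. For Gapdh it was 4.10 against 2.02 to 3.87, and for the transferrin receptor it was 2.32, inside the 1.89 to 3.44 of the others. Pyruvate carboxylase had -0.0065, inside the -0.26 to 0.03 of the others. Untreated replicate 3 had the lowest ratio of all arrays for beta-actin (0.92) and Gapdh (2.02). It was not the lowest for the transferrin receptor (2.25) or pyruvate carboxylase (0.03). The part of 3′ bias in the values above was not tested. The labels' array file numbers fall into 2 ranges, the second holding replicate 3 of both groups. That second range sets a single treated array against a single untreated array. Within it Relb differed by +1.19, Nfkb2 probe set 1425902_a_at by +1.12 and Nfkbie probe set 1458299_s_at by +1.58. Within the first range, replicates 1 and 2, the same probe sets differed by +0.10, +0.05 and -0.24. Nfkbia probe set 1438157_s_at was less uneven, with +1.12 and +0.50, and Rela had +0.63 and +0.50. Of the 17 probe sets 12 were above 0 in each range, and 8 in both. The same counts were not made over all probe sets, so these have no background and do not show that the ranges agree.

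The mean of 10 T cell and Treg markers was 11.48, 11.49 and 12.01 on treated and 11.30, 10.71 and 11.84 on untreated replicates 1, 2 and 3. Treated replicate 3 was the highest array in this list, untreated replicate 3 the next and untreated replicate 2 the lowest. In treated Tregs 9 of the 10 were higher and 1, Il2ra, was lower, at -0.05. Transcripts of other cell types also differed between the arrays. The mean of 13 B cell markers was 6.59 to 6.74 on treated arrays, 9.74 and 9.71 in untreated replicates 1 and 2 and 7.10 in untreated replicate 3, with 13 of 13 lower in treated. The 4 plasma cell markers ran from 6.16 to 6.29 on treated and from 6.60 to 8.85 on untreated arrays. The 15 myeloid markers had means of 8.48 to 9.62 in treated and 6.91 to 9.21 in untreated samples, with 14 of 15 higher in treated. For the 7 neutrophil markers the means were 10.99 to 12.57 and 6.75 to 12.18, with 6 of 7 higher in treated. In both lists untreated replicate 3 was the lowest. NK markers ran from 7.30 to 7.78 in treated and 6.78 to 8.43 in untreated samples, erythroid markers from 7.72 to 8.66 and 6.66 to 8.78, and the 2 CD8 genes from 6.47 to 6.69 and 6.59 to 6.63. Of the 10 T cell and Treg markers, Foxp3, Cd4, Cd3e and Il2ra measured at least 9.95, 9.10, 11.62 and 9.53 on every array. The neutrophil mean was above the mean of those 10 on treated replicate 1 (12.57 against 11.48). It was also above on untreated replicates 1 (12.18 against 11.30) and 2 (11.67 against 10.71). The lists rest on different genes and probe sets, so this order does not give the relative amounts of RNA. B cells and myeloid cells make NF-kB transcripts of their own, and the part of such RNA in the values above was not tested. The part of unequal T cell and Treg RNA between the arrays was not tested either. Set against untreated replicate 3 alone, 15 of the 17 differences were above 0, with Rel at +0.18, Nfkbia probe set 1438157_s_at at +0.60 and Relb at +0.02. This describes a single control array, whose B cell mean was nearest to the treated arrays but whose myeloid and neutrophil means lay below all of theirs.

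**Figure D4:**
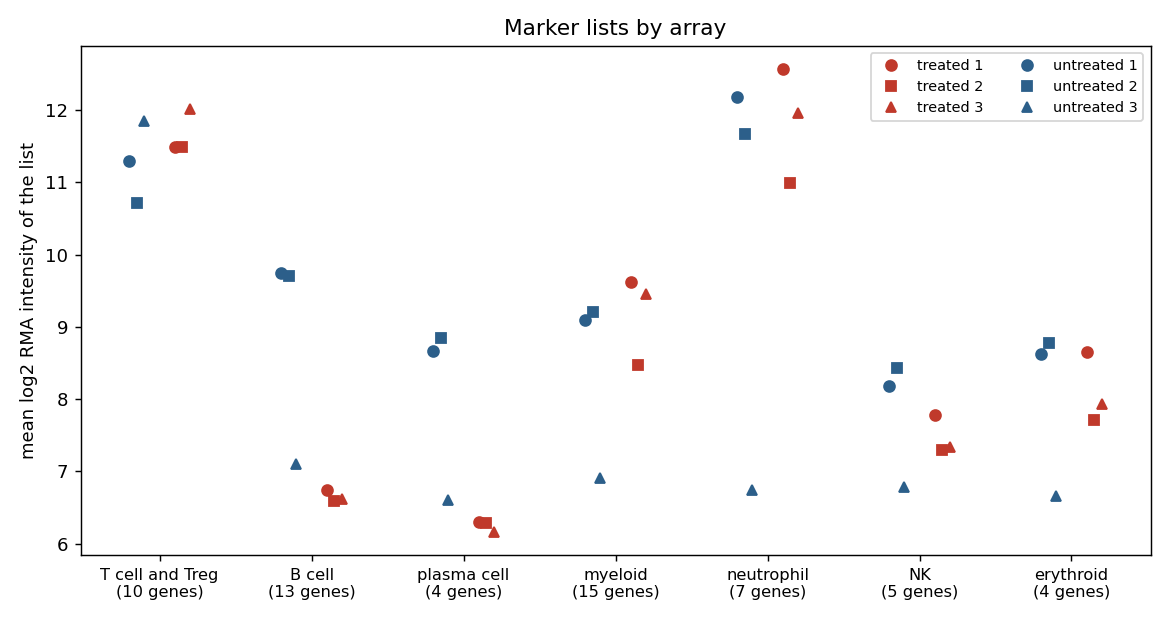
Mean log2 RMA intensity of 7 marker lists on each array, untreated at the left and treated at the right of each list, with replicates as separate symbols. Untreated replicate 3 lies apart from untreated replicates 1 and 2 in the B cell list at 7.10 and in the neutrophil list at 6.75.

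The rest of the NF-kB pathway was read from a list of 89 genes, of which 80 were measured by 162 probe sets. Of these probe sets 0 passed the test. An unadjusted limma p under 0.05 was reached by 6 with higher and 7 with lower values in treated Tregs, beside 1.53% and 3% of all probe sets. The median difference was +0.03, and 90 lay above 0 and 72 below.

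Receptors and their adaptors gave 17 of 22 probe sets above 0 and 5 below, with a median of +0.27, and 3 higher and 2 lower at an unadjusted limma p under 0.05. Tnfrsf1b, tumour necrosis factor receptor 2, measured 11.73, 12.39 and 12.33 in treated and 10.75, 11.13 and 11.22 in untreated replicates. All treated values lay above all untreated ones, by +1.12 on average (interval 0.56 to 1.68, limma adjusted p = 0.961). The other probe set of this gene differed by +0.01 and its groups overlapped. Il1r1, an interleukin-1 receptor, differed by +0.86 in 1 of its 2 probe sets. The other differed by +0.42 but was among the dimmest of all probe sets, with a mean of 3.22. Its treated replicate 2 was at 4.07 and the other 5 arrays lay between 2.89 and 3.12. Tnfrsf13c, the BAFF receptor known from B cells, differed by -2.29, and its untreated values of 10.02, 10.47 and 7.89 fell in 2 levels like those of the B cell list.

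Genes of the steps between receptor and nucleus had medians near 0. Proteins from the T cell receptor to IKK had a median of -0.01 over 19 probe sets, with 1 at an unadjusted limma p under 0.05. This was Bcl10, a scaffold protein, at -0.65, with its treated values of 6.88, 7.02 and 6.90 below the untreated 7.34, 7.25 and 8.18. The other 3 Bcl10 probe sets differed by -0.23 to -0.45 and overlapped. Of several probe sets each, the one with the smallest p differed by +0.40 for Tab1 and +0.36 for Map3k7, while others reached -0.01 and -0.33. The IKK and related kinases had a median of -0.01 over 16 probe sets, from -0.40 to +0.26. Both ends were probe sets of Ikbkb, the kinase that phosphorylates IkB alpha. Of these 16, 0 had an unadjusted limma p under 0.05. Tbk1 was at -0.34 and -0.15, and the 6 probe sets of Ikbkg, the regulatory subunit, ran from -0.20 to +0.12.

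TRAF and IAP adaptors had a median of +0.03 over 16 probe sets, with 1 at an unadjusted limma p under 0.05. This was Traf6, a ubiquitin ligase downstream of interleukin-1 and Toll-like receptors, which measured 8.79, 7.87 and 8.66 in treated and 9.19, 9.82 and 9.09 in untreated replicates, a difference of -0.93. The other 4 Traf6 probe sets differed by -0.15 to +0.05 and overlapped between the groups. Traf1, itself an NF-kB target, differed by +0.92 and +0.50 in its 2 probe sets, the former with treated replicate 3 at 9.56 and the next highest array at 7.98. The 3 probe sets of Tradd ran from -0.34 to +0.26. Among 42 probe sets of other regulators the median was +0.02. Rnf31, the catalytic part of the linear ubiquitin ligase, differed by +0.87 and was the 1 at an unadjusted limma p under 0.05. Bcl3, a nuclear IkB protein, differed by +1.07 and Nkiras2 by +0.48. Bcl3 showed the same high array as Relb, at 10.34, above the other 5, of which the untreated arrays had 7.99, 7.84 and 8.64.

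The 47 probe sets of known NF-kB targets had a median of +0.01, with 25 above 0 and 22 below, and 2 higher and 3 lower at an unadjusted limma p under 0.05. Ccr7, a lymph node homing receptor, had all treated values, up to 6.24, below all untreated values, from 7.95 (difference -2.05, limma adjusted p = 0.227). Cd83, a marker of activated lymphocytes and dendritic cells, differed by -1.51 and Foxp3 by +1.19. The targets thus held single genes on both sides, and none of them passed.

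**Figure D5:**
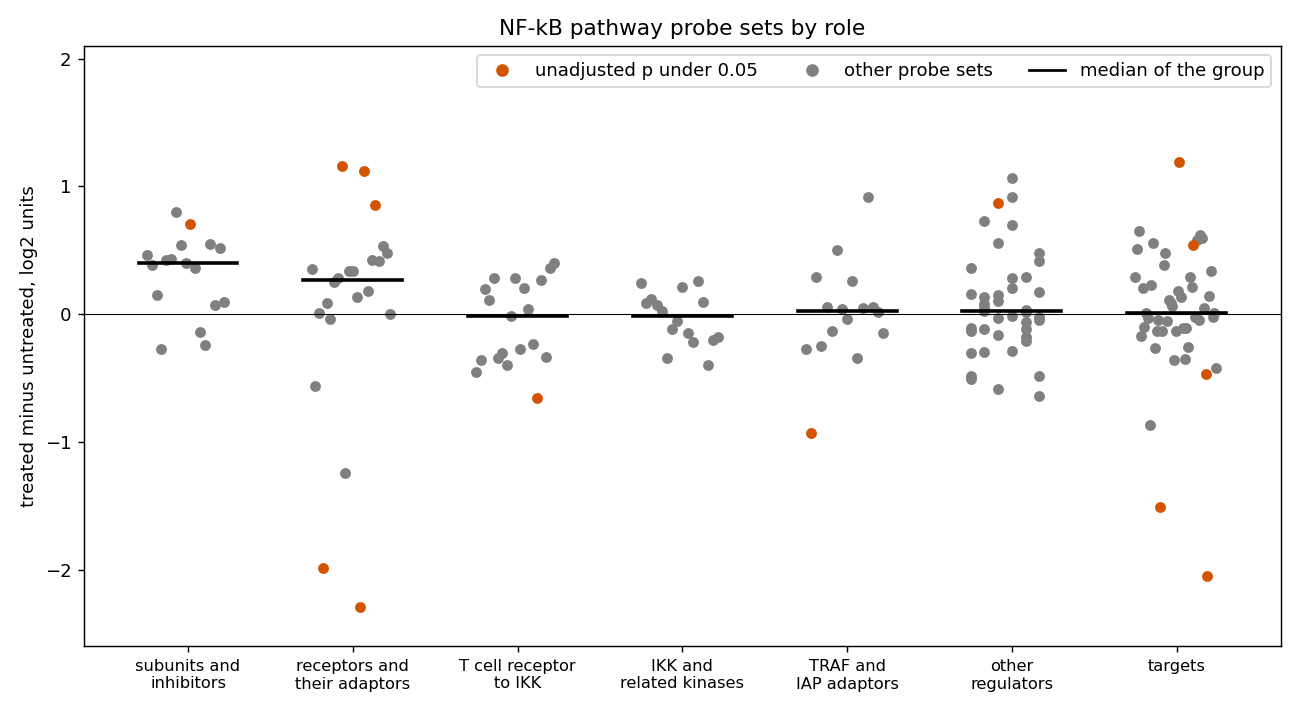
Difference of each probe set in log2 units for the 17 subunit and inhibitor probe sets and the 6 groups of other NF-kB pathway genes; orange points have an unadjusted p under 0.05 and black bars are medians. The medians of the 6 other groups run from -0.01 to +0.27, and the subunits and inhibitors have +0.40.

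The genes most like Nfkbia probe set 1438157_s_at, the NF-kB probe set with the smallest p, were Ptpn23, Tdrkh, Trnau1ap, Acap1 and Mrpl52. Likeness was the root mean square distance between mean-centred log2 values over the 6 arrays, which was 0.069 for Ptpn23 and 0.076 for Mrpl52. Ptpn23 was highest in treated replicate 3, at 8.32, and lowest in untreated replicate 2, at 6.80. This follows from its choice by likeness and is not a separate result.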

How the data were processed

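RNA from sorted Tregs was amplified in 2 rounds and hybridised to Affymetrix M430v2 arrays, per the labels' protocols and design text. The authors deposited RMA intensity values, which the range shows to be linear, from 5.47 to 29584.9, and array medians ran from 85.3 to 92.4. The sources used here give no RMA version. Log2 was taken here with no further normalization. The 64 control probe sets were left out. Symbols came from the platform annotation, updated through gene identifiers for 34741 of 34945 probe sets with 1 symbol; 932 had several and 9160 none.

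Treated and untreated arrays were compared by limma (3.58.1, R 4.3.3) over all 45037 probe sets, each on its own, with Benjamini-Hochberg adjustment over all of them and a threshold of 0.05. All probe sets of the NF-kB genes are described, and from each pathway group the 3 genes with the smallest p. Markers were read from each gene's brightest probe set. The fit was tested on simulated data. Alternatives covered covariates and a replicate block, normalization and centring, a filter on dim probe sets, the variance prior, array weights, 1 value per gene, means of linear values, an adjusted p of 0.1 and each array left out. Figures were drawn with matplotlib 3.10.9. The members and lists were chosen with earlier results of these data known. Each array held 1 mouse, so p-values rest on the spread between arrays. That spread joins differences between mice with those of sorting, amplification and hybridisation, which were not separated.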

Additional observations from a re-analysis of the deposited data

How the results depend on the processing

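No NF-kB subunit or inhibitor probe set passed under any of the fits run, with adjusted p from 0.733 upward. The count at an unadjusted limma p under 0.05 was 1. It was 4 with the replicate block, 3 with the array file number range, 2 with age as a covariate, 2 after quantile normalization, and 0 with array weights, with the brightest probe set per gene, or with untreated replicate 3 as the only untreated array. Replicate numbers were not taken to pair the samples. Same-numbered arrays have adjoining file numbers, but the labels do not say what these mark, and deviations of the 3 pairs correlated at 0.45, 0.08 and 0.09, of which 2 are under 0.1. Treated replicate 1 correlated best with untreated replicate 1, and treated replicate 3 with untreated replicate 3, narrowly (0.09 against 0.07 with untreated replicate 1). Treated replicate 2 correlated best with untreated replicate 3, at 0.17. By median absolute log2 distance treated replicate 1 was nearest to untreated replicate 1, at 0.151. Treated replicate 2 was nearest to untreated replicate 3 (0.354) and treated replicate 3 to treated replicate 1 (0.218). These values go both ways and do not settle whether the samples were paired. With each array left out in turn, the NF-kB count at an unadjusted limma p under 0.05 ran from 0 to 2. The count of all called probe sets ran from 0 (higher 0, lower 0) to 59 (higher 2, lower 57, both without untreated replicate 3). That of the pathway list ran from 0 to 3 (Tnfrsf13c and 2 probe sets of Cd40, without untreated replicate 3). Array weights gave 5 calls over all probe sets, 1 higher and 4 lower, with 1 in the pathway list, Ccr7. Untreated replicate 3 as the only untreated array, chosen after seeing the data and assuming that array varies as the treated ones do, gave 2 calls over all probe sets. Age as a covariate turned Nfkbia probe set 1420088_at to -0.21 and Nfkbid to -0.024, and the cause was not tested. Leaving out 1 array reversed the sign of some values. The lowest and highest values were -0.10 and 0.66 for Nfkb2 probe set 1425902_a_at, -0.30 and 0.042 for Rel, -0.13 and 0.82 for Relb, -0.14 and 0.46 for Nfkbia probe set 1420088_at, -0.082 and 0.72 for Nfkbia probe set 1420089_at, -0.15 and 0.71 for Nfkbie probe set 1458299_s_at and -0.0081 and 0.33 for Nfkbid. Rel turned to +0.18 with untreated replicate 3 as the only untreated array. The remaining alternatives kept the direction of each NF-kB probe set, and apart from that setting 260 of 271 values kept theirs. With 14 of the 17 differences above 0 in the main comparison, the count under the alternatives, added after seeing the data, ran from 11 to 15.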
